A study of Mus musculus with 4 samples.

Results

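The TNF receptor superfamily and its adaptors were described in lymphoid tissue inducer (LTi) cells, a type of innate lymphocyte of the gut wall that makes lymphotoxin and IL-22. The 35 genes were taken by symbol from the 27179 genes of the deposited table, each matched through its Entrez identifier: 26 receptors, the 6 TRAF adaptors Traf1 to Traf6, and the death domain adaptors Tradd, Fadd and Ripk1. RNA was sequenced from live LTi cells sorted from small intestinal lamina propria of C57BL/6 mice, by a gate that required CD127 and CCR6 and excluded lineage markers, KLRG1, NK1.1 and NKp46. There were 2 control libraries from Gata3+/+ mice (Ctrl) and 2 libraries from Gata3fl/fl VavCre mice (Gata3-KO), in which Cre under the Vav promoter is made in blood cells at large and not in LTi cells alone. The labels give no age or sex, do not say whether the controls carried VavCre, and do not say whether the libraries came from separate animals. The p-values therefore measure only the spread between these libraries, which may be technical.

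Receptors of this superfamily bind trimeric ligands of the TNF superfamily at the cell surface and have no enzyme of their own. One class carries a death domain and can recruit Tradd, Fadd and Ripk1, which leads to NF-kB activation or to Casp8 and cell death. The other class binds TRAF proteins, which carry ubiquitin ligases and kinases to the receptor and turn on the canonical or the Nfkb2 branch of NF-kB. In the gut, LTi cells are best known as senders in this system, through lymphotoxin and RANKL, and the receptors tell which of these signals they could receive.

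Of the 35 genes, 34 had enough reads to be tested, and 3 passed at an adjusted p below 0.05 (limma, Benjamini-Hochberg over 14224 genes). Tnfrsf9, which encodes the costimulatory receptor CD137, was lower in Gata3-KO libraries, and Tnfrsf13c (the BAFF receptor) and Traf5 were higher. Both genes that were higher had few reads in Ctrl libraries. These 3 genes were 8.82% of the members tested, against 9.04% of all genes tested, so the share of members called was close to that of the transcriptome. Among all genes 8.35% were called higher and 0.689% lower.

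The promoters of the 3 called genes are shown because Gata3, a factor that binds GATA sites, is the gene targeted here and because TRAF signalling ends at NF-kB. The RefSeq promoter table of GRCm38.p6 holds 250 bases before and 50 bases after each start site, and 29 of the 35 genes were matched in it. Capitals mark letters that match a GATA site (AGATAA or AGATAG or TGATAA or TGATAG, on either strand) or the kappa-B consensus of NF-kB (either strand). Tnfrsf9 has 2 promoters in that table, at chr4:150919905-150920204 and, inside the gene, at chr4:150927749-150928048, both on the plus strand. Tnfrsf13c starts at chr15:82224331-82224630 and Traf5 at chr1:192092550-192092849, both on the minus strand.
Tnfrsf9 upstream promoter: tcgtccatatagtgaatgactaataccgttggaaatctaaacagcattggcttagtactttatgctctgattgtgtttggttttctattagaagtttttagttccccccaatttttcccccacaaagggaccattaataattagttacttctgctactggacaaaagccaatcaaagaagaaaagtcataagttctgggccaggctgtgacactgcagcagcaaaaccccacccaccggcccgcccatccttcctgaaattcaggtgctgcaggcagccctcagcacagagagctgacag
Tnfrsf9 internal promoter: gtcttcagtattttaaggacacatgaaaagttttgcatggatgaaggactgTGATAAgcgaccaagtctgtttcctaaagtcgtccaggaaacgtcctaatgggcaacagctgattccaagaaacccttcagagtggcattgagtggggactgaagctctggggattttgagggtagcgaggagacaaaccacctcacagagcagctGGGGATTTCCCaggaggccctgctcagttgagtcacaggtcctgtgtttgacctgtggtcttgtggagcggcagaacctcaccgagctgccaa
Tnfrsf13c promoter: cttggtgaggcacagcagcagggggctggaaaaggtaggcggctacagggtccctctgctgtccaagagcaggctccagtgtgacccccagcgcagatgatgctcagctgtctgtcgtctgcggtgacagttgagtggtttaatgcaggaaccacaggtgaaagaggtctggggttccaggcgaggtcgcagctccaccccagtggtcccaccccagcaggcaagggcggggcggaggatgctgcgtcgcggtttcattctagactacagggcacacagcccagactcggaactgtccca
Traf5 promoter: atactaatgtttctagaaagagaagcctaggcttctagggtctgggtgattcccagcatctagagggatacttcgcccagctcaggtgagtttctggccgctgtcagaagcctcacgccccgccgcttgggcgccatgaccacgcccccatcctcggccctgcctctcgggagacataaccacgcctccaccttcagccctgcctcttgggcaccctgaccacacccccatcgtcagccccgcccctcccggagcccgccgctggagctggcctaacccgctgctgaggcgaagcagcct
The internal Tnfrsf9 promoter holds TGATAA with its first base at −199 from the start site, and overlapping kappa-B matches at −43 and −42. The other 3 windows hold no match of either kind. A GATA match was found in 7 of the 29 matched members (24.1%) and in 33.0% of the 27025 genes of the table. A kappa-B match was found in 4 of 29 members (13.8%) and in 9.55% of those genes. These are matches of letters, and no binding was measured.

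Gata3 itself was measured at 84.3 and 50.7 RPKM (reads scaled to gene length and to the library's total) in Ctrl and at 34.5 and 23.3 RPKM in Gata3-KO libraries. Both Gata3-KO libraries lay below both Ctrl libraries, and the log2 difference of −1.18 ± 0.36 (SE) did not pass (limma, adjusted p = 0.0900). The labels do not say which exons are floxed, and reads from exons outside a deleted part check nothing. All differences are Gata3-KO minus Ctrl of log2(RPKM + 1), which understates changes of genes near 0. Ctrl libraries held 14294708 and 12670034 reads and Gata3-KO libraries 24315878 and 23973995, so depth and genotype cannot be told apart. As deposited, the median over all genes tested was 0.43, and it was 0.05 with median-ratio scaling. That scaling divides each library by its median ratio to the geometric mean of the libraries, over genes with reads in every library. On that second scale 1.07% of genes were called, 0.633% higher and 0.436% lower, and of the members only Tnfrsf9 was (2.94% of 34). An unadjusted p under 0.05 was found for 30.5% of all genes tested as deposited and for 22.6% after median-ratio scaling.

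The sort was checked against its markers. The 12 LTi markers reported here all had reads in every library, and they summed to 4228 and 2819 RPKM in Ctrl and to 1299 and 1691 RPKM in Gata3-KO. Of these 12 genes 2 were called lower and 0 higher in limma, on both scales, and 2 were called in limma-voom. Il22 fell from 2401 and 1520 RPKM to 129 and 287 RPKM (limma adjusted p = 0.0212), and Cd4, a surface marker of many LTi cells, fell from 36.5 and 53.0 RPKM to 8.80 and 12.3 RPKM (limma adjusted p = 0.0253). The largest part of the sum was Il22 in Ctrl and Ltb in Gata3-KO libraries. The fall of the sum was thus in large part that of Il22, and the sum is no measure of LTi cell content. Both Gata3-KO libraries lay below both Ctrl libraries in 6 of the 12 as deposited and in 11 after median-ratio scaling, beside 7.59% and 25.2% of all genes tested. Of the genes of the sort, Il7r (143 and 77.6 against 61.2 and 45.7 RPKM) and Ccr6 (146 and 63.3 against 155 and 176 RPKM) were well expressed, Klrg1 was low (0 to 1.44 RPKM), and Klrb1c, the NK1.1 gene, lay between 0.585 and 12.1 RPKM. Ncr1, the NKp46 gene, fell from 6.84 and 14.8 RPKM to 0.0562 and 0.428 RPKM (limma adjusted p = 0.0195), and this call was lost after median-ratio scaling (limma adjusted p = 0.0528) and in limma-voom (adjusted p = 0.0772). Transcripts of other cells were present too, and their lists did not all move alike. The 16 markers of B and plasma cells summed to 3350 and 9058 RPKM in Ctrl and to 60304 and 22447 RPKM in Gata3-KO, with 14 of 16 called higher and Cr2 at 0 in Ctrl replicate 1. The 11 T cell markers summed to 205 and 124 RPKM against 684 and 245 RPKM, with 4 of 11 called higher, and the 12 epithelial markers to 444 and 274 against 1787 and 2567 RPKM, with 10 of 12 called higher. After median-ratio scaling 1, 1 and 5 of these markers were called. Of all genes tested 8.35% were called higher and 0.689% lower as deposited, and 0.633% and 0.436% after median-ratio scaling. Of 11 myeloid markers tested 2 were called higher, and the list summed to 73.9 and 89.2 against 105 and 235 RPKM. The 6 markers of ILC1 and NK cells, Ncr1 among them, summed to 16.7 and 61.9 against 38.4 and 12.6 RPKM, and the 6 of ILC2 to 5.17 and 2.14 against 3.83 and 2.38 RPKM, with overlap in both lists. In bulk samples, fewer cells of a type and less RNA per cell cannot be told apart. The part of such transcripts in the results on single members was not tested, and their levels are given beside the genes that moved with them.

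In Ctrl libraries the receptors with the highest mean levels were Tnfrsf18 at 228 ± 12.6 RPKM, Tnfrsf1b at 160 ± 13.6, Tnfrsf25 at 136 ± 7.78 and Tnfrsf9 at 119 ± 11.2 RPKM (SD, n = 2). Tnfrsf18 encodes GITR, Tnfrsf1b the TNF receptor TNFR2, and Tnfrsf25 the receptor DR3 for TL1A. Tnfrsf18 lay above the others in both libraries, Tnfrsf1b above Tnfrsf25 and Tnfrsf9 in both, while Tnfrsf25 (141 and 130 RPKM) and Tnfrsf9 (127 and 112) differed by little more than their spread. Tnfrsf1a followed at 33.5 ± 26.2 RPKM, and all other receptors had means of 15.9 RPKM or less. In Gata3-KO libraries the order was Tnfrsf1b, Tnfrsf18, Tnfrsf25, Tnfrsf1a and Tnfrsf9, at means of 146, 102, 93.2, 63.2 and 43.3 RPKM. The 2 values of Tnfrsf18 there spanned a range that overlapped those of Tnfrsf1b, Tnfrsf25 and Tnfrsf1a, while Tnfrsf9 lay below all of them in both libraries.

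**Figure D1:**
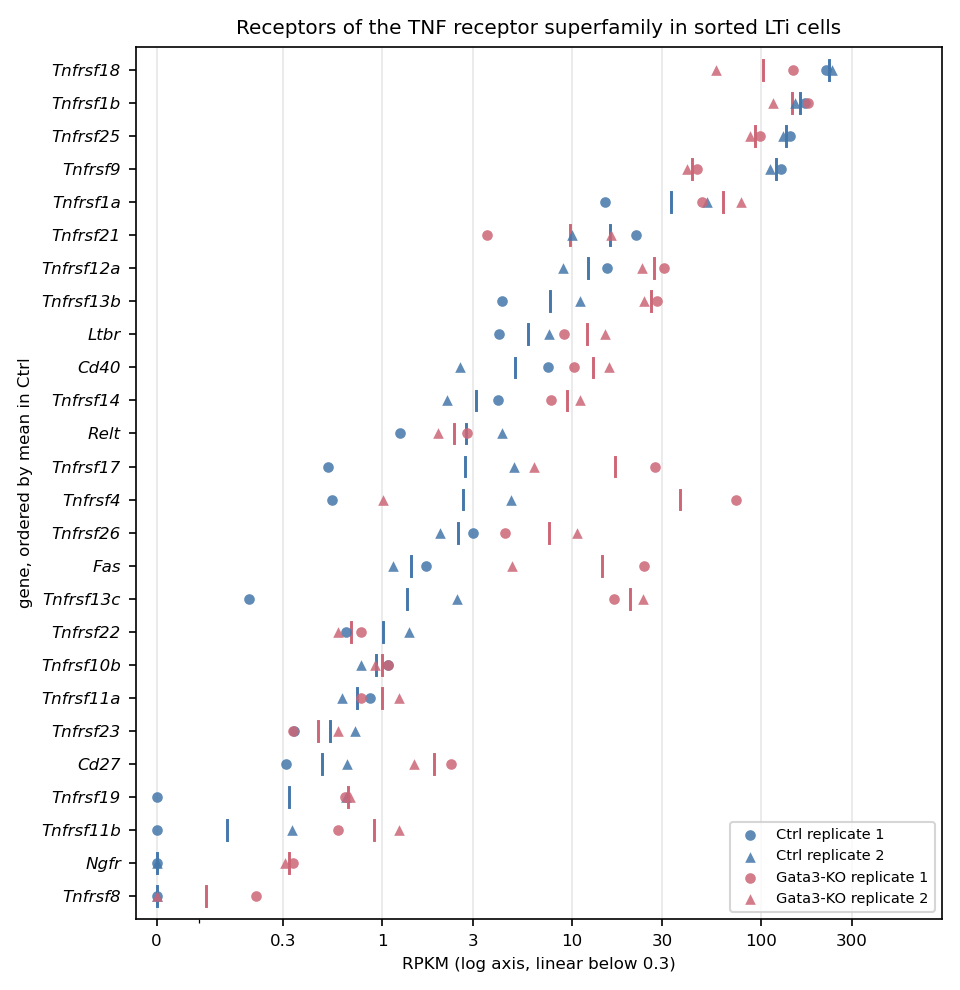
Level of each of the 26 receptors in the 4 libraries, in RPKM on a log axis that is linear below 0.3; points are libraries and vertical bars the group means. Tnfrsf18, Tnfrsf1b, Tnfrsf25 and Tnfrsf9 stand at the top, and both Gata3-KO points of Tnfrsf9 lie left of both Ctrl points.

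Tnfrsf9 was the only member that passed on both scales. Its level was 127 and 112 RPKM in Ctrl and 46.1 and 40.4 RPKM in Gata3-KO, from 2152 to 4045 reads a library. The 4 values fall into 2 tight pairs with no overlap, and the Ctrl mean was 2.76 times the Gata3-KO mean. Tnfrsf9 (Entrez 21942, chr4:150920155-150946104, GRCm38.p6) fell by 1.44 on the log2 scale (SE 0.26, 95% interval −2.08 to −0.81, limma adjusted p = 0.0318). It also fell after median-ratio scaling (−2.02 ± 0.22, limma adjusted p = 0.0409). It did not pass with no filter or with the replicate number as a block (limma adjusted p = 0.0950 and 0.0589). Only 0.928% of all genes tested had a lower log2 difference on the deposited scale. Genes near 0 can fall little on that scale, while Tnfrsf9 lay above 97.2% of genes tested by its Ctrl mean. The share among genes of like level was not computed. With 1 library left out at a time the difference stayed between −1.54 and −1.35 and no longer passed (limma adjusted p from 0.0937 to 0.245). The LTi marker sum, in Ctrl mostly Il22, was lower in the same Gata3-KO libraries. The part of LTi transcripts in the difference of Tnfrsf9, or in that of Tnfrsf18 below, was not tested. The ligand gene of Tnfrsf9, Tnfsf9, was low, at 3.81 and 2.82 RPKM in Ctrl and 9.90 and 3.49 RPKM in Gata3-KO, and the groups overlapped.

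Within-library shares do not depend on the scaling between libraries and were looked at after the levels were known. Tnfrsf9 made up 17.2% and 14.9% of the summed RPKM of the 26 receptors in Ctrl and 6.04% and 7.48% in Gata3-KO. Tnfrsf18 made up 29.6% and 31.6% in Ctrl, against 19.3% and 10.6%. The share of Tnfrsf1b was about level, at 22.99% and 20.1% in Ctrl and 23.1% and 21.4% in Gata3-KO. Set against Tnfrsf1b in the same library, Tnfrsf9 stood at ratios of 0.749 and 0.740 in Ctrl and 0.262 and 0.349 in Gata3-KO. The summed receptor level itself was 740, 748, 763 and 540 RPKM in Ctrl replicates 1 and 2 and Gata3-KO replicates 1 and 2, so the sums overlapped and the makeup of the sum differed.

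The other receptors of lymphocyte costimulation went different ways. Tnfrsf18 was at 219 and 236 RPKM in Ctrl and at 147 and 57.5 RPKM in Gata3-KO, where the libraries differed from each other more than the nearer one differed from Ctrl. The groups did not overlap, but the difference of −1.29 ± 0.46 did not pass (limma adjusted p = 0.125, and 0.125 after median-ratio scaling). In the GENCODE M21 annotation 27.2% of its exon bases lie opposite exons of the antisense gene Gm16008, and whether counting used strand is not given in the sources used here. Tnfrsf1b was at 170 and 151 against 176 and 116 RPKM, with no separation of the groups. Tnfrsf14, the receptor HVEM for LIGHT and lymphotoxin alpha, was at 4.07 and 2.21 against 7.78 and 11.1 RPKM, both Gata3-KO libraries being higher (1.35 ± 0.38, limma adjusted p = 0.0734).

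Tnfrsf4 (OX40, a costimulatory receptor of activated T cells) was decided by 1 library. Its level was 0.545 and 4.78 RPKM in Ctrl and 73.9 and 1.01 RPKM in Gata3-KO, that is 9, 70, 2075 and 28 reads. Only Gata3-KO replicate 1 was high, and the difference of 2.04 ± 2.27 became −0.57 without that library. The same library held the highest levels of the T cell genes Cd3d (2.58 and 3.86 against 62.0 and 2.35 RPKM) and Cd8a (0.112 and 0.630 against 34.3 and 1.27 RPKM). Cd40lg, a ligand made by activated T cells, showed the same shape at 2.30 and 1.39 against 38.3 and 0.768 RPKM. Other T cell markers did not, and 6 of the 11 were higher in both Gata3-KO libraries than in both Ctrl libraries, beside 54.0% of all genes tested. Set against the T cell gene Cd3g in the same library, Tnfrsf4 stood at 0.117 and 0.849 in Ctrl and at 0.365 and 0.0191 in Gata3-KO. The part of T cell transcripts in Tnfrsf4 was not tested. Cd27, another receptor of T and B cells, was low throughout, at 0.311 and 0.651 against 2.30 and 1.48 RPKM (0.96 ± 0.33, limma adjusted p = 0.111), with no overlap. Tnfrsf8, which encodes CD30, was at 0.235 RPKM in Gata3-KO replicate 1 and had no reads elsewhere, and it was not tested. A count of 0 allows up to 3 reads, or 0.210 and 0.237 CPM (reads scaled to the library's total only) in the Ctrl libraries, counting error only.

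All 4 receptors known best from B cells had higher levels in both Gata3-KO libraries than in both Ctrl libraries, an order found in 54.0% of all genes tested. After median-ratio scaling 3 of them still did, beside 30.1% of all genes. Tnfrsf13c was at 0.220 and 2.48 RPKM in Ctrl and at 16.8 and 23.9 RPKM in Gata3-KO, from 6, 60, 779 and 1093 reads. As a ratio, the Ctrl libraries differed from each other by more than the higher of them differed from either Gata3-KO library. Tnfrsf13c (Entrez 72049, chr15:82221742-82224380) rose by 3.35 ± 0.54 on the log2 scale (95% interval 2.04 to 4.67, limma adjusted p = 0.0253), a 15.1-fold ratio of means. After median-ratio scaling the difference was 2.91 ± 0.62 and did not pass (limma adjusted p = 0.0870), and with 1 library left out it lay between 2.60 and 4.11 (limma adjusted p from 0.0751 to 0.237).

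Tnfrsf13b, which encodes the BAFF and APRIL receptor TACI, was at 4.29 and 11.05 RPKM in Ctrl and 28.1 and 24.2 RPKM in Gata3-KO (1.76 ± 0.43, limma adjusted p = 0.0565). Tnfrsf17, the plasma cell receptor BCMA, was at 0.517 and 4.96 against 27.6 and 6.32 RPKM, so 1 Ctrl and 1 Gata3-KO library nearly met (2.27 ± 0.94, adjusted p = 0.183 in limma). Cd40, the receptor for CD40 ligand on B cells and antigen-presenting cells, was at 7.49 and 2.57 against 10.4 and 15.7 RPKM (1.32 ± 0.48, adjusted p = 0.129 in limma). The B cell gene Cd79a, which encodes a subunit of the B cell receptor, rose from 6.70 and 18.0 RPKM in Ctrl to 140 and 168 RPKM in Gata3-KO. Set against Cd79a in the same library, Tnfrsf13c stood at 0.0329, 0.138, 0.120 and 0.142 in Ctrl replicates 1 and 2 and Gata3-KO replicates 1 and 2, and only Ctrl replicate 1, with its 6 reads, was apart. Tnfrsf13b stood at 0.641 and 0.613 of Cd79a in Ctrl and at 0.200 and 0.144 in Gata3-KO. Cd40 stood at 1.12, 0.142, 0.0737 and 0.0937. Relative to Cd79a, therefore, Tnfrsf13b and Cd40 were lower in both Gata3-KO libraries, although their levels were higher there. The ratio of Tnfrsf17 to Cd79a was not computed. Cd79a was chosen after its values were seen, and other B cell genes were not used in its place.

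**Figure D2:**
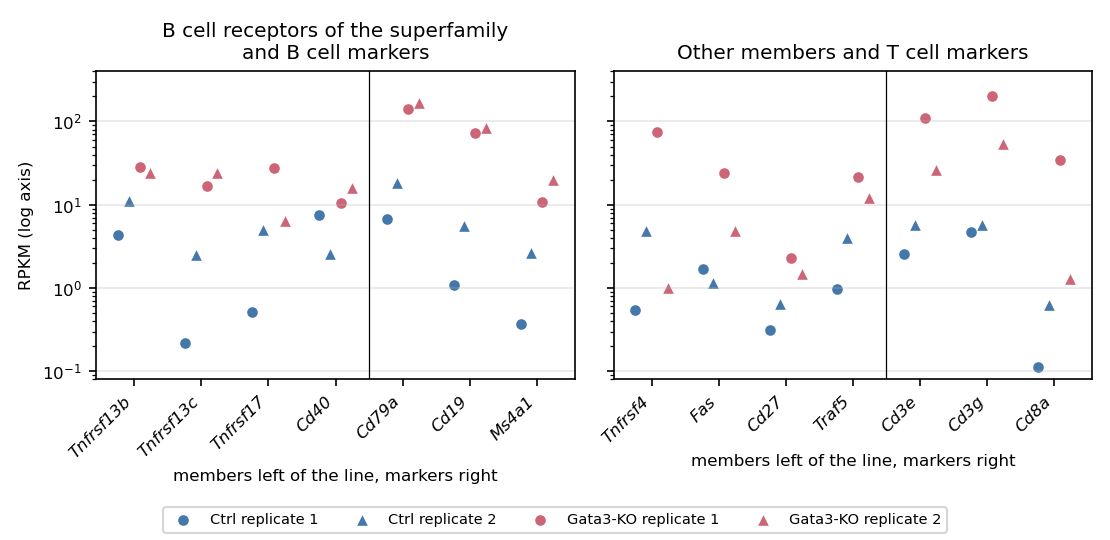
Levels of 8 members beside markers of B cells (left panel) and T cells (right panel) in each library, in RPKM on a log axis. Tnfrsf13c and Cd79a are both higher in the 2 Gata3-KO libraries, and Tnfrsf4 and Cd8a are both highest in Gata3-KO replicate 1.

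Among the 6 death receptors no gene passed in limma or limma-voom, and 1 had an unadjusted p under 0.05. Tnfrsf25 was at 141 and 130 RPKM in Ctrl and 98.9 and 87.5 RPKM in Gata3-KO, with no overlap and little spread within a group. Its difference of −0.54 ± 0.26 did not pass on the deposited scale (limma adjusted p = 0.223), nor did −1.12 ± 0.22 after median-ratio scaling (limma adjusted p = 0.0788). Its ligand gene Tnfsf15 was low, at 0.0240 and 0.176 RPKM against 0.649 and 0.480 RPKM. Tnfrsf1a, the TNF receptor TNFR1, was at 14.9 and 52.0 against 48.5 and 77.8 RPKM, with Ctrl replicate 2 just above the lower Gata3-KO library and Ctrl replicate 1 far below (1.10 ± 0.61, limma adjusted p = 0.278). Fas, the receptor for Fas ligand, was at 1.71 and 1.14 against 23.98 and 4.86 RPKM, higher in both Gata3-KO libraries, which differed widely from each other.

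The Fas difference of 2.33 ± 0.69 did not pass (adjusted p = 0.0923 in limma). Fas, like Tnfrsf4, was highest in the library with the highest marker sums of T cells and of B and plasma cells. The part of transcripts of these cells in the Fas level was not tested. Tnfrsf21 (DR6) was at 21.8 and 10.1 against 3.595 and 16.1 RPKM, with overlap. Tnfrsf10b, the mouse TRAIL receptor with a death domain, was near 1 RPKM in all libraries (0.770 to 1.08). Ngfr, the neurotrophin receptor p75, had no reads in Ctrl libraries and 28 and 25 reads in Gata3-KO libraries. Its mean CPM in Gata3-KO libraries was 4.91 times a floor of 3 reads per Ctrl library. This bound covers the counting error of the Ctrl libraries only, not that of Gata3-KO or the spread between libraries. Its fitted difference of 0.40 on the log2(RPKM + 1) scale is no bound.

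Ltbr, the lymphotoxin beta receptor, which is best known from stromal and myeloid cells, was at 4.15 and 7.62 RPKM in Ctrl and 9.12 and 14.99 RPKM in Gata3-KO (0.93 ± 0.40, adjusted p = 0.176 in limma). Its level was thus far below that of its ligand gene Ltb, at 511 and 428 against 325 and 506 RPKM. Tnfrsf11a, the RANK receptor, was at 0.864 and 0.613 against 0.770 and 1.23 RPKM, while the RANKL gene Tnfsf11 was at 121 and 187 against 101 and 120 RPKM. In both pairs the LTi cell libraries held the ligand transcript at a high and the receptor transcript at a low level. Tnfrsf11b, the soluble RANKL decoy osteoprotegerin, had 0 and 12 reads in Ctrl and 40 and 83 reads in Gata3-KO. Of the 8 stromal and endothelial markers tested 0 were called in limma or limma-voom and 0 had an unadjusted limma p under 0.05, and all 10 listed summed to 26.5 and 95.02 RPKM in Ctrl and 33.0 and 45.6 RPKM in Gata3-KO.

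Tnfrsf12a (Fn14, the receptor for TWEAK, common on epithelium and stroma) was at 15.3 and 8.997 against 30.6 and 23.6 RPKM, with no overlap (1.13 ± 0.34, adjusted p = 0.0902 in limma). Epithelial markers were higher in the same libraries, as given above, and their part in it was not tested. Tnfrsf19 (0 to 0.681 RPKM) and Relt (1.24 to 4.29 RPKM) overlapped between the groups. Of the 3 receptors of the mouse chromosome 7 cluster, Tnfrsf22 and Tnfrsf23 encode decoy receptors for TRAIL and lay between 0.338 and 1.39 RPKM with overlap. The pair shares 7.57% (Tnfrsf22) and 10.99% (Tnfrsf23) of its 50-base words in the annotated transcripts, so reads could be split between them and their values are uncertain. Tnfrsf26 was at 3.01 and 2.01 against 4.48 and 10.7 RPKM (1.20 ± 0.45, adjusted p = 0.137 in limma) and shared no such word with either.

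Traf1 was the most abundant of the 35 genes in both genotypes. Its product is an adaptor without a ubiquitin ligase domain, which NF-kB is known to induce. It was at 547 and 502 RPKM in Ctrl and 423 and 481 RPKM in Gata3-KO, above 99.4% of all genes tested by its Ctrl mean and above 99.0% by its Gata3-KO mean. It made up 79.4% and 76.8% of the summed TRAF level in Ctrl and 75.5% and 79.5% in Gata3-KO, so its share overlapped between the groups. Its difference was −0.22 ± 0.30 as deposited and −0.80 ± 0.21 after median-ratio scaling, and it did not pass on either (limma adjusted p = 0.660 and 0.116).

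Traf5 was the only adaptor that passed. Its product joins Traf2 at receptors such as CD40, CD27 and OX40. It was at 0.965 and 4.02 RPKM in Ctrl and 21.7 and 11.9 RPKM in Gata3-KO, from 29, 107, 1109 and 600 reads. Replicates differed widely within each group, and the groups did not overlap. Traf5 (Entrez 22033, chr1:191997203-192092599) rose by 2.45 ± 0.54 on the log2 scale (95% interval 1.15 to 3.75, limma adjusted p = 0.0456), with a 6.74-fold ratio of means. It did not pass after median-ratio scaling (1.97 ± 0.62, limma adjusted p = 0.161) or with any 1 library left out (1.77 to 3.12, limma adjusted p from 0.0882 to 0.276).

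Set against Traf2 in the same library, Traf5 stood at 0.0181 and 0.108 in Ctrl and at 0.647 and 0.341 in Gata3-KO. Traf5 is known from T and B cells, whose marker sums were higher in the same 2 libraries, and their part in the difference was not tested. Of its exon bases 4.49% lie opposite the antisense gene Gm26879.

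Traf2 and Traf4 were the other abundant adaptors. Traf2, which carries the ligases Birc2 and Birc3 to receptors, was at 53.4 and 37.3 against 33.6 and 35.0 RPKM. Traf4, an adaptor with less defined receptors, was at 76.6 and 97.4 against 62.3 and 60.7 RPKM. Both were below Ctrl in both Gata3-KO libraries without passing (limma adjusted p = 0.423 and 0.276, and 0.105 and 0.104 after median-ratio scaling). Traf3, which marks the kinase NIK for degradation, was at 6.93 and 7.95 against 14.1 and 6.89 RPKM and overlapped. Traf6, an adaptor of IL-1 and Toll-like receptors as well as RANK and CD40, was at 4.18 and 5.35 against 5.78 and 9.83 RPKM (0.58 ± 0.36, adjusted p = 0.325 in limma).

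Of the death domain adaptors, Tradd, the first adaptor at TNFR1, was at 19.0 and 14.4 RPKM in Ctrl and 34.2 and 43.1 RPKM in Gata3-KO. The groups did not overlap, and the difference of 1.17 ± 0.29 did not pass (adjusted p = 0.0574 in limma). After median-ratio scaling it was 0.60 ± 0.23 (adjusted p = 0.210 in limma). Fadd, which links death receptors to Casp8, was at 2.66 and 3.05 against 5.23 and 5.77 RPKM (0.75 ± 0.31, adjusted p = 0.165 in limma). Ripk1, the kinase at the branch point of survival and death signals, was at 2.60 and 2.14 against 1.15 and 2.38 RPKM and overlapped.

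**Figure D3:**
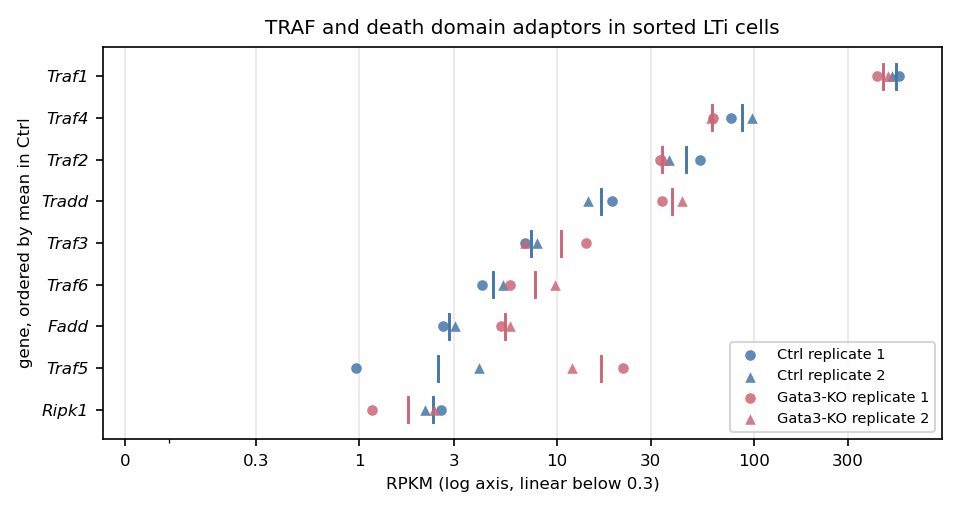
Level of the 6 TRAF and 3 death domain adaptors in the 4 libraries, in RPKM on a log axis that is linear below 0.3; points are libraries and vertical bars the group means. Traf1 stands apart at 423 to 547 RPKM, and Traf5 and Tradd show both Gata3-KO points right of both Ctrl points.

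Counted over all 34 members tested, both Gata3-KO libraries lay above both Ctrl libraries for 16 genes and below for 6, and 12 overlapped. The corresponding shares of all genes tested were 54.0% above and 7.59% below. After median-ratio scaling 13 members lay above and 11 below, with 30.1% and 25.2% of all genes doing so. The median log2 difference of the members was 0.49 (0.64 with Ngfr at its bound), beside 0.43 over all genes, and after median-ratio scaling 0.23 beside 0.05. In a median with Ngfr at its bound, here and below, a log2 ratio of CPM stands among differences of log2(RPKM + 1). No gene was set to a bound in the median over all genes, so such a median is not comparable with it. The 4 B cell receptors had a median of 2.01, the 6 death receptors 0.23 (0.58 with Ngfr at its bound), the 6 costimulatory receptors tested 0.40 and the 6 TRAF adaptors 0.08. After median-ratio scaling these medians were 1.51, 0.06, −0.04 and −0.48 in the same order. Those of the costimulatory receptors and of the TRAF adaptors thus turned below 0. On the log2(RPKM + 1) scale this scaling moves abundant genes more than genes near 0. Traf1 went from −0.22 to −0.80 and Ngfr from 0.40 to 0.34. Medians of lists that differ in level are therefore not moved alike. The 7 members with the highest Ctrl levels, from Traf1 to Traf2, all had differences below 0 on both scales. Differences above 1 on the deposited scale belonged to members with Ctrl means of 33.5 RPKM or less. The Ctrl values enter both the ranking and the difference, so ranking in this way by itself favours such an order. The share among all genes of like level was not computed.

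**Figure D4:**
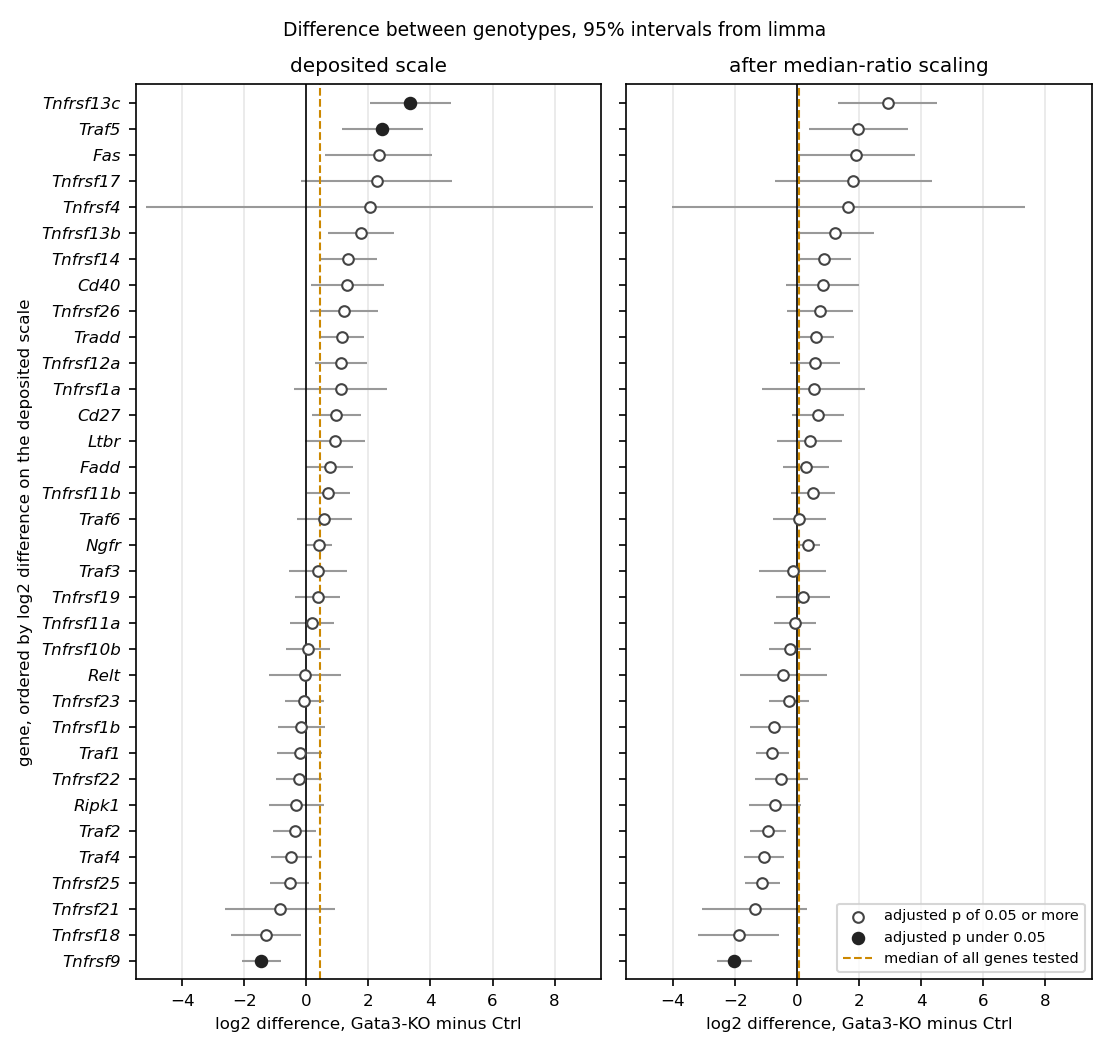
Log2 difference (Gata3-KO minus Ctrl) of the 34 members tested with 95% intervals from limma, as deposited (left) and after median-ratio scaling (right); filled points passed, and the dashed line is the median of all genes tested (0.43 and 0.05). Tnfrsf9 is the lowest point and is filled in both panels, while Tnfrsf13c and Traf5 are filled on the left only.

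Genes of the superfamily often sit in clusters. Of the 35 members 7 lie on chromosome 4, among them Tnfrsf9, Tnfrsf18, Tnfrsf4, Tnfrsf25 and Tnfrsf1b. Tnfrsf9, Tnfrsf25 and Tnfrsf18 were lower in both Gata3-KO libraries and Tnfrsf14, which lies between Tnfrsf25 and Tnfrsf4, was higher in both. Tnfrsf4 and Tnfrsf18 are 9.71 kb apart and on the same strand, and Tnfrsf4 was high in 1 Gata3-KO library. On chromosome 6 Cd27, Ltbr and Tnfrsf1a lie side by side, with mean levels in Ctrl of 0.481, 5.88 and 33.5 RPKM.

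Of the 18 ligands listed 13 were tested. In limma 1 was called higher and 0 lower (unadjusted p under 0.05 in 2 and 1), and in limma-voom 0 were called. The limma call was 7.69% of the ligands tested, beside 9.04% of all genes tested. Tnfsf4, the OX40 ligand that LTi cells are known to express, rose from 2.52 and 1.62 RPKM in Ctrl to 22.3 and 8.32 RPKM in Gata3-KO (2.28 ± 0.49, adjusted p = 0.0444 in limma). It did not pass after median-ratio scaling (1.81, adjusted p = 0.140 in limma). Tnfsf8, the CD30 ligand, was at 23.7 and 21.6 against 85.4 and 28.4 RPKM, again highest in Gata3-KO replicate 1 (1.09 ± 0.52, adjusted p = 0.215 in limma). The median over the ligands was 0.40, and 0.20 after median-ratio scaling.

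Of the 38 signalling genes downstream of the receptors all were tested, 2 were called higher and 0 lower in limma (unadjusted p under 0.05 in 5 and 0), and 0 were called after median-ratio scaling (unadjusted in 15) or in limma-voom. The shares of all genes with an unadjusted p under 0.05 were 30.5% and 22.6% on these scales. As deposited, the 2 limma calls were 5.26% of the list, beside 9.04% of all genes tested. Tab1, a partner of the kinase TAK1, rose from 1.65 and 2.21 RPKM to 7.71 and 8.05 RPKM (1.61 ± 0.32, adjusted p = 0.0357 in limma). Mlkl, the pore-forming effector of necroptosis, rose by 1.92 ± 0.30 (adjusted p = 0.0237 in limma), with 2 and 1 reads in Ctrl and 142 and 108 reads in Gata3-KO. Tnip2, a ubiquitin-binding inhibitor of NF-kB signalling, was at 9.36 and 6.95 against 18.5 and 21.6 RPKM and did not pass (1.21 ± 0.30, adjusted p = 0.0559 in limma). The median over these 38 genes was 0.16, and −0.34 after median-ratio scaling.

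The 9 NF-kB subunits and inhibitors in that list, to which these receptors lead, had 0 called in limma and limma-voom (unadjusted p under 0.05 in 0), a median of −0.25 and 7 members below 0. After median-ratio scaling their median was −0.84, both Gata3-KO libraries lay below both Ctrl libraries in 7 of 9, and again 0 were called (unadjusted limma p under 0.05 in 6). Of all genes 25.2% lay below in this way and 22.6% had such a p on that scale. The TRAF adaptors Traf1 to Traf6 had differences of −0.80, −0.95, −0.15, −1.06, 1.97 and 0.07 on the same scale, and none of them passed either. This scaling, as given above, moves abundant genes more than genes near 0.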

How the data were processed

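RNA of the sorted cells was extracted with a miRNeasy kit and made into libraries by Smart-seq2, which has no molecular identifiers, per the labels' protocols. Subread and featureCounts on mm10 are named in the submitters' processing notes, while for their versions, the strand setting and the handling of multi-mapped reads nothing is given in the sources used here. As the values themselves show, the authors deposited log2(RPKM + 1) plus 0.0001. Whole reads were recovered from them (within 0.001 reads in 100% of the 19047 genes with reads) and gave the depth and the filter. They rest on an inferred gene length, so that read numbers of genes with few reads can be a whole multiple off. One LTi marker of the list is not reported here.

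Genes with at least 0.5226 CPM in 2 libraries and 15 reads in total were tested (14224) in a two-sided test without a block by limma 3.58.1 (R 4.3.3; trended, robust variance), with Benjamini-Hochberg adjustment at a threshold of 0.05. The log2 pseudocount was 1, as deposited. The test script was tested on simulated data. Intervals on limma estimates are 95% intervals, and floors of 3 reads cover counting error only. Of the table's identifiers 25275 were found in RefSeq (GRCm38.p6), and exon overlaps come from GENCODE M21.

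The members and lists were chosen with earlier results of these data known. All members are named. Of the ligand and signalling lists, the called genes and the 3 with the largest difference are named. Other ligand genes are given as partners of a receptor, and ratios between genes, Cd79a, Cd3d, Cd8a, Il22 and Cd4 were chosen after their values were seen. The alternatives were median-ratio scaling, limma-voom on the recovered reads (alone and with that scaling), no filter, a filter of 5 CPM, a pseudocount of 0.1, a replicate block and leaving out each library. Other steps used Python 3.11.15.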

Additional observations from a re-analysis of the deposited data

How the results depend on the processing

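Tnfrsf9 was called under median-ratio scaling, limma-voom, both together, the 5 CPM filter and a pseudocount of 0.1, and not with no filter, a replicate block or a library left out. No other member was called in as many of these settings. All genes called, 1286 (1188 higher, 98 lower), became 152 (90 and 62) after median-ratio scaling, 271 (224 and 47) with limma-voom, 95 (30 and 65) with both together, 854 (781 and 73) with a pseudocount of 0.1, and 0 with no filter or with any library left out (0 to 0). With 5 CPM they were 1717 and with the replicate block 1069. Unadjusted p-values under 0.05 numbered 4336 with no filter and 2425 to 3814 with a library left out, which leaves 1 library in an arm that is assumed to vary like the other. Members called (3, with 2 higher and 1 lower) became 1 (0 higher) under median-ratio scaling, limma-voom, both together and a pseudocount of 0.1. They became 0 with no filter (11 unadjusted) or a library left out (8 to 10 unadjusted), 6 (5 higher, with Tnfrsf13b, Tnfrsf14 and Tradd added) with 5 CPM, where fewer genes are tested, and 2 (0 lower: Fas and Tnfrsf13c) with the replicate block, under which Tnfrsf9 had a limma adjusted p of 0.0589 and Traf5 of 0.0660. Whether the replicate numbers pair the libraries is not known. Same-numbered libraries deviated with a correlation of −0.021 across genes, which with 4 libraries cannot decide it. The ligand call (1 higher) became 0 and the signalling calls (2 higher) became 0 under median-ratio scaling, limma-voom, both together, no filter and left-out libraries, and the ligand call also with a pseudocount of 0.1.

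Some directions turned. Tnfrsf10b moved to −0.23, Tnfrsf11a to −0.073 and Traf3 to −0.15 after median-ratio scaling, and to −0.49, −0.19 and −0.17 in limma-voom with it. Relt moved to 0.063 in limma-voom and 0.015 with a pseudocount of 0.1. With a library left out the log2 difference ranged from −0.059 to 0.17 for Tnfrsf10b, −1.79 to 0.11 for Tnfrsf21, −0.57 to 4.65 for Tnfrsf4, −0.46 to 0.14 for Tnfrsf1b and −0.65 to 0.58 for Relt. It ranged from −0.51 to 0.029 for Tnfrsf22, −0.24 to 0.12 for Tnfrsf23, −0.10 to 0.84 for Traf3, −0.64 to 0.0094 for Ripk1 and −0.67 to 3.81 for Cd40lg. The cause of these shifts was not tested. The genes that turned were not all low, and Tnfrsf1b had 11941 and 9384 reads in Ctrl. Apart from these shifts, with 2 libraries a group, differences of members at 0 to 60 reads in Ctrl carry a counting error that the log2(RPKM + 1) scale shrinks.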
